A study of Mus musculus and Rattus norvegicus with 32 samples.

Results

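The genes described are 49 named factors that make and modify ribosomal RNA, and 48 of them were found by symbol in each of 4 RNA-seq tables. They were grouped by role into rRNA transcription (6 genes: Polr1a, Polr1b, Polr1c, Ubtf, Rrn3, Tcof1), rRNA modification (14 genes: Fbl, Nop56, Nop58, Dkc1, Gar1, Nhp2, Nop10, Nolc1, Nop2, Nat10, Dimt1, Emg1, Bud23, Nsun5), small subunit processing (14 genes: Nop14, Rrp9, Rrp12, Utp4, Utp15, Utp20, Wdr43, Wdr75, Nol6, Nob1, Pno1, Ltv1, Tsr1, Bysl), large subunit processing (10 genes: Nop16, Bop1, Wdr12, Pes1, Rrp1, Rrp1b, Rrs1, Gnl2, Gnl3, Noc2l) and multifunctional nucleolar proteins (4 genes: Ncl, Npm1, Mybbp1a, Lyar). Heatr1, a small subunit factor, was not listed in the rat table, so its mouse values are given apart from the counts. The tables listed 55487 mouse genes and 32883 rat genes.

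The study concerned METTL5, the enzyme that places N6-methyladenosine on 18S rRNA together with its partner TRMT112. Hearts of 1-month-old METTL5-KO mice, which lack the gene in the whole body, were compared with hearts of control littermates. Hearts of 3-month-old METTL5-cKO mice, made by crossing Myh6-Cre with METTL5 fl/fl mice (loxP sites flank exons 2–4), were compared with control hearts without surgery and, in separate mice labelled with the same age, 4 weeks after transverse aortic constriction (TAC), which loads the left ventricle with pressure. The titles of these hearts say cKO, whereas their genotype field says KO at 3 months and after TAC, and the titles were followed. All mice were C57BL/6, and in the cKO the deletion is limited to cardiomyocytes while the RNA came from every cell type of the heart. Neonatal rat ventricular myocytes (NRVMs) from Sprague Dawley pups at postnatal day 2, pre-plated to remove fibroblasts, received adenovirus with human METTL5 (AdMETTL5) or GFP (AdGFP), and all of them received 20 μM phenylephrine (PE), a hypertrophic α-adrenergic agonist, for 24 h. Each group held 4 libraries. Nothing in the labels ties each NRVM library to a separate isolation, so the p-values there measure the spread between these libraries, which may be technical.

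Ribosome production begins in the nucleolus, where RNA polymerase I transcribes a long precursor that is methylated, pseudouridylated and acetylated at many positions while assembly factors cut and fold it. The box C/D and box H/ACA small nucleolar RNPs choose most methylated and pseudouridylated positions by base pairing. Stand-alone enzymes such as Bud23, Dimt1, Emg1 and Nat10 instead act on particular positions of 18S rRNA. In cardiomyocytes this pathway is known to be activated during hypertrophic growth, and MYC is a classic transcriptional activator of its genes.

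Total counts per library were between 14324700 and 21804907. In NRVMs the AdMETTL5 libraries (14324700–14642431) were shallower than the AdGFP libraries (17344430–18085339), so depth and group cannot be told apart there. Members had 54 to 5458 counts per library, and all 48 passed the filter on low counts in each comparison. The median standard error (SE) of a member's log2 fold change was 0.0599 in NRVMs, 0.0918 after TAC, 0.109 in the 3-month and 0.132 in the 1-month comparison, so the NRVM comparison could resolve smaller differences than the heart comparisons. The whole-gene count of Mettl5, which includes exons outside the part floxed in METTL5-cKO, did not separate the mouse genotypes. It was 5.12 ± 0.665 CPM (counts scaled to a common library total, mean ± SD, n = 4) in controls and 5.97 ± 0.807 in METTL5-KO at 1 month, 7.36 ± 0.554 and 6.51 ± 0.731 in controls and METTL5-cKO at 3 months, and 6.75 ± 0.753 and 6.59 ± 0.764 after TAC. For METTL5-cKO hearts the paper reports almost no reads over the floxed exons, and exons were not counted apart here. Since the whole-gene count does not tell the genotypes apart, mouse libraries are called by their labels. Levels are TMM-scaled CPM, fold changes are log2 values of the second group over its control, and a gene was called when its p from the quasi-likelihood test of edgeR, adjusted over all tested genes by the Benjamini-Hochberg method, was under 0.05.

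Ribosome biogenesis genes spanned a wide range of levels in the control hearts. Divided by the length of their annotated exons, TAC control levels ran from 0.671 CPM per kb to 38.0 CPM per kb with a median of 3.81 CPM per kb. The highest were Nop10 (38.0 CPM per kb), a small core protein of the H/ACA particle, Npm1 (21.5 CPM per kb), a nucleolar chaperone, and Rrp1 (18.5 CPM per kb), a large subunit factor. The 48 genes lay on 19 mouse chromosomes. In the mouse annotation 22 of them have exons that overlap a gene on the opposite strand, and the strand setting of the counting is not given in the sources used here, so reads of such pairs could not be told apart.

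In 1-month-old hearts no ribosome biogenesis gene was called between METTL5-KO and control. Of all 16329 genes tested, 0% were called higher and 0.00612% lower. Among the 48 members 26 lay above 0 and 22 below, with a median log2 fold change of 0.01 (-0.01 over all genes) and a range of -0.23 to 0.33. No member had groups that were apart, against 1.52% of all genes apart upward and 1.49% downward. Nop2, which methylates a cytosine of 28S rRNA, was the only member with an unadjusted p under 0.05. Its level was 8.31, 10.4, 10.2 and 10.9 CPM in controls and 10.1, 12.1, 13.2 and 14.6 CPM in METTL5-KO (log2 fold change 0.33, SE 0.137, adjusted p = 0.973). The 2 groups of Nop2 overlapped, since the lowest METTL5-KO library lay below 3 of the control libraries.

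The members with the smallest p in the other roles at 1 month also had overlapping groups. Rrn3, the initiation factor TIF-IA that recruits RNA polymerase I, was at 19.4, 22.1, 20.5 and 22.7 CPM in controls and 20.1, 22.8, 24.9 and 24.5 CPM in METTL5-KO (log2 fold change 0.12). For Rrp9, a protein of the U3 particle, controls were at 8.86, 11.9, 9.54 and 10 CPM and METTL5-KO at 10.9, 11.4, 13.95 and 12.3 CPM (0.27). Rrp1b, a large subunit factor, was at 8.07, 8.56, 9.12 and 7.28 CPM against 8.47, 6.67, 6.89 and 6.47 CPM (-0.21). These spans each shared a stretch of values between the genotypes. Lyar, a nucleolar regulator of rRNA processing, was at 17.4, 14.97, 15.5 and 13.3 CPM against 12.2, 14.6, 16.6 and 13.4 CPM (-0.11), again with overlap.

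The 18S rRNA enzymes stayed close to 0 at 1 month, with log2 fold changes of 0.05 for Bud23, the 7-methylguanosine enzyme that shares the partner Trmt112 with Mettl5, -0.05 for Dimt1, which dimethylates neighbouring adenosines near the end of 18S rRNA, 0.01 for Emg1, a pseudouridine methyltransferase, and 0.07 for Nat10, the cytidine acetyltransferase. Trmt112 itself had a log2 fold change of 0.08 and Mettl5 of 0.22 (adjusted p = 0.973 for both). Heatr1 had 0.13. Control library 1 had a lower summed cardiomyocyte marker level (24483 CPM) than the other 7 libraries (30102–38959 CPM). No marker was called, and without that library the count of called members was again 0.

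At 3 months no ribosome biogenesis gene was called between METTL5-cKO and control hearts either, where 0.0488% of 16391 genes were called higher and 0.0244% lower. The members leaned below 0, with 14 above and 34 below and a median log2 fold change of -0.04 (0.00 over all genes), but under scaling by library size alone 27 lay above and 21 below. Relative to the median of all genes, 14 members lay above it under each scaling. The largest values were 0.35 and -0.30. Groups were apart upward for 2 members, Polr1c and Npm1 (4.17%, against 2.19% of all genes), and downward for 3, Emg1, Utp15 and Noc2l (6.25%, against 2.04%).

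An unadjusted p under 0.05 was found for 4 members at 3 months, each in a different role, and none passed the adjustment. That p was met by 1155 of the 16391 genes tested, a share near that of the members. Rrs1, needed to place the 5S particle in the large subunit, was at 9.75, 9.30, 10.1 and 12.2 CPM in controls and 12.98, 13.6, 13.9 and 12.2 CPM in METTL5-cKO (0.35, SE 0.109, adjusted p = 0.49). Npm1 was at 54.1, 52.5, 52.6 and 52.4 CPM in controls and 55.9, 58.8, 63.6 and 60.4 CPM in METTL5-cKO (0.17, SE 0.0735, adjusted p = 0.679). Rrs1 groups met at their edges, while every METTL5-cKO library exceeded every control for Npm1. Emg1 was at 26.6, 30, 27.3 and 29.5 CPM against 24.6, 23.8, 23.95 and 26.04 CPM (-0.20, SE 0.0804, adjusted p = 0.638). Utp15, a part of the t-UTP complex that starts assembly on the precursor, was at 6.76, 5.76, 6.32 and 6.28 CPM against 5.47, 5.39, 4.31 and 5.29 CPM (-0.30, SE 0.117, adjusted p = 0.638). For both genes the METTL5-cKO libraries all lay below the controls. Polr1c, a subunit shared by RNA polymerases I and III, was at 5.64, 6.84, 7.08 and 7.15 CPM against 7.33, 7.26, 8.40 and 7.24 CPM (0.18, adjusted p = 0.873).

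Of the other 18S rRNA enzymes at 3 months, Bud23 had a log2 fold change of -0.03, Dimt1 of -0.21 and Nat10 of -0.18. Mettl5 had -0.18 (adjusted p = 0.884), Trmt112 -0.05 and Heatr1 -0.05. Summed cardiomyocyte markers were lower in all METTL5-cKO libraries (42250–46207 CPM) than in controls (48204–51058 CPM), and the 7 fibroblast markers each lay above 0 (median 0.49). All 6 macrophage markers also lay above 0 (median 0.39), and all 6 endothelial markers (median -0.43) and all 4 smooth muscle markers (median -0.57) below 0. Of the 3 markers of dividing cells tested 1 lay above 0. No marker of any list was called, although 16 of the 34 tested had an unadjusted p under 0.05. Their part in the member values was not tested.

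**Figure D1:**
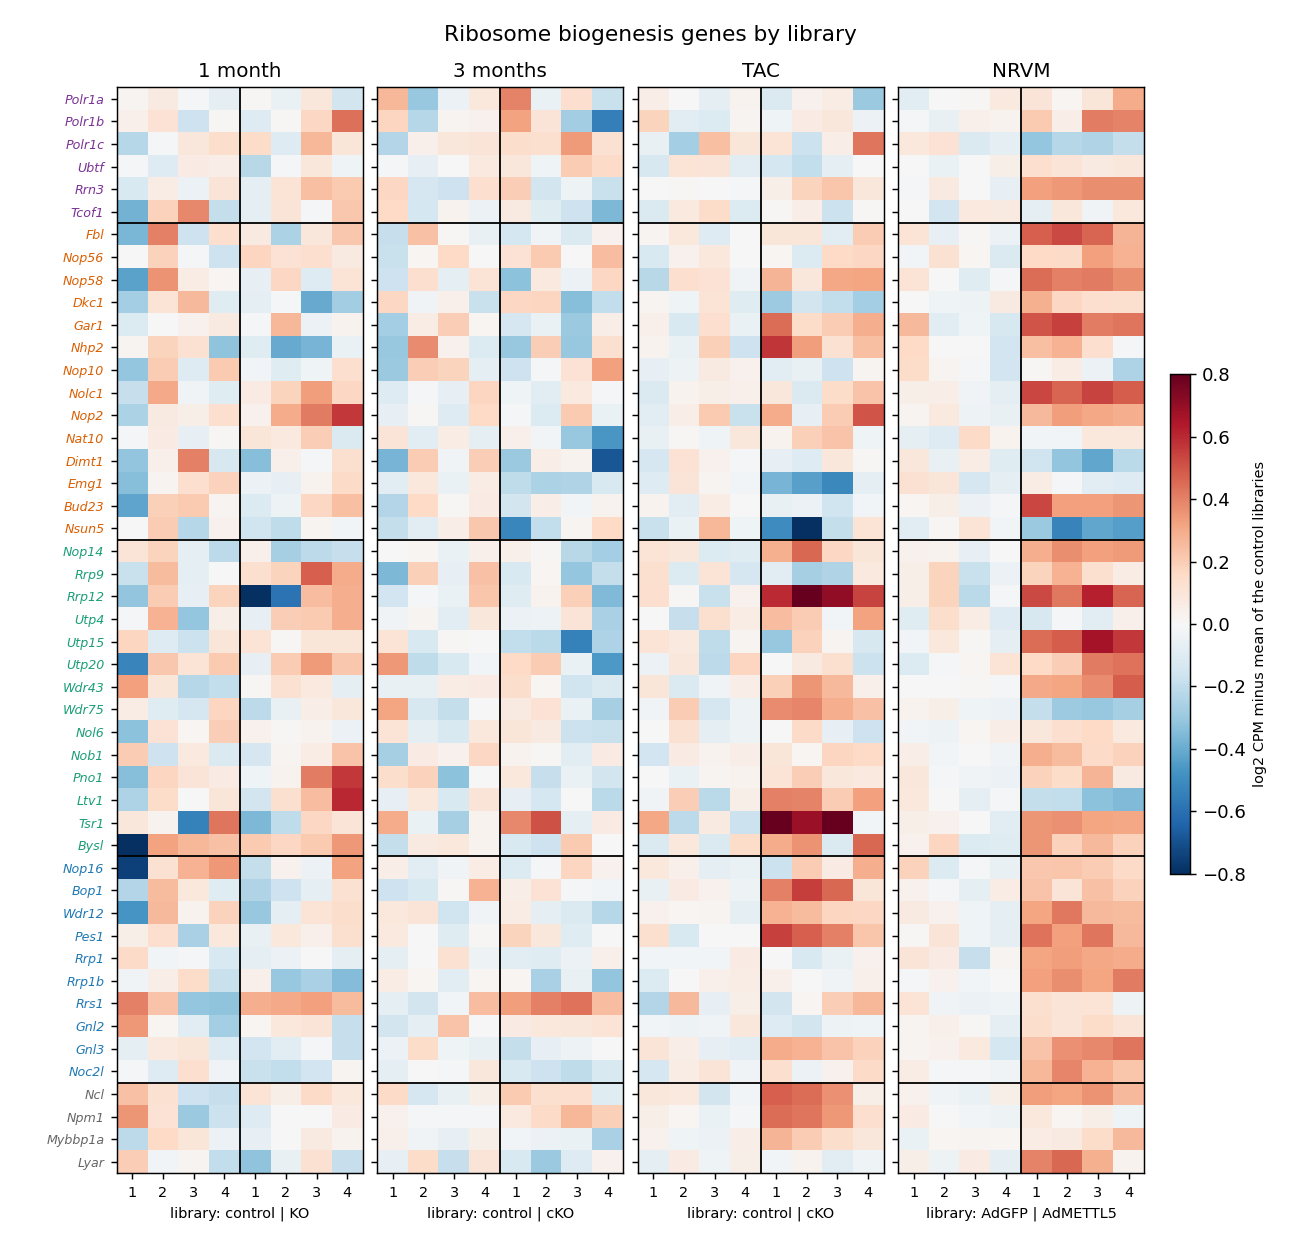
Each row is 1 of the 48 members, ordered by role, and each column is 1 library. Colour gives the log2 CPM minus the mean of the 4 control libraries of the same comparison. The METTL5-KO and METTL5-cKO columns at 1 and 3 months are mixed, the METTL5-cKO columns after TAC are mostly above control in the small subunit rows, and the AdMETTL5 columns are above AdGFP in most rows.

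After TAC 4 ribosome biogenesis genes were higher in METTL5-cKO hearts and none was lower. These were the small subunit export and processing factor Rrp12, the large subunit factors Pes1 and Bop1, which sit together in the PeBoW complex, and Npm1. The called share, 8.33% of 48, lay near the 6.57% of all 16340 genes called higher, and 0 members were called lower against 6.10% of all genes. By the unadjusted p, 16 members were higher and 2 lower, where 5062 of the 16340 genes passed in either direction. DESeq2's Wald test called 7 members higher and 1 lower, against 1460 higher and 1259 lower among all genes. In all, 33 members lay above 0 and 15 below, with a median log2 fold change of 0.11 (0.00 over all genes) and a range of -0.34 to 0.67. Groups were apart upward for 12 members (25%, against 9.41% of all genes) and downward for 1 (2.08%, against 9.16%). Scaling by library size alone shifted the median of all genes to 0.14, and 2060 of all genes were then called higher and 524 lower. Under it 45 members lay above 0, 17 were called higher, and 33 lay above the median of all genes, as many as with TMM.

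Rrp12 had the largest fold change. Its CPM was 16.3, 14.9, 13.1 and 15.2 in controls and 22.5, 26.2, 24.3 and 21.6 in METTL5-cKO hearts (log2 fold change 0.67, SE 0.0934, adjusted p = 0.00706 by edgeR's quasi-likelihood test). The groups were well apart. Rrp12 (chr19:41862851-41896173, minus strand, GRCm38) was called under each alternative scaling, filter and tool and without each library in turn, with adjusted p between 1.5e-07 and 0.0294.

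The other calls after TAC had smaller fold changes and were lost when some of the libraries were left out. Pes1 (chr11:3963975-3980004, plus strand) was at 17.7, 14.9, 16.2 and 16.2 CPM in controls and 23.6, 22.6, 21.4 and 18.9 CPM in METTL5-cKO (0.41, SE 0.0913, adjusted p = 0.0223). Bop1 (chr15:76452989-76477277, minus strand) was at 12.3, 13.3, 13.1 and 12.4 CPM against 16.8, 18.7, 17.5 and 13.6 CPM (0.39, SE 0.102, adjusted p = 0.0379). Npm1 (chr11:33152287-33163206, minus strand) was at 59.2, 57.96, 55.4 and 56.95 CPM against 78.1, 77.2, 72.9 and 62.9 CPM (0.34, SE 0.0813, adjusted p = 0.0281). In each of these genes METTL5-cKO library 4 was the lowest METTL5-cKO library and still lay above every control. Without METTL5-cKO library 4, 10 members were called higher and 1 lower, with a member median of 0.058. Calls over all genes rose as well in that setting, from 2071 to 3899. Leaving out control library 2, 3 or 4 or METTL5-cKO library 1, 2 or 3 kept the call of Rrp12 alone, and without control library 1, or with no filter on low counts, Bop1 was lost. Sequence copies and overlaps touch these genes: Npm1 has 5 pseudogenes and Pes1 has 1 that share at least 30% of their 31-base words, exons of Bop1 overlap Mroh1 by 50 bases, and those of Pes1 overlap 4930556J24Rik by 138 bases.

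**Figure D2:**
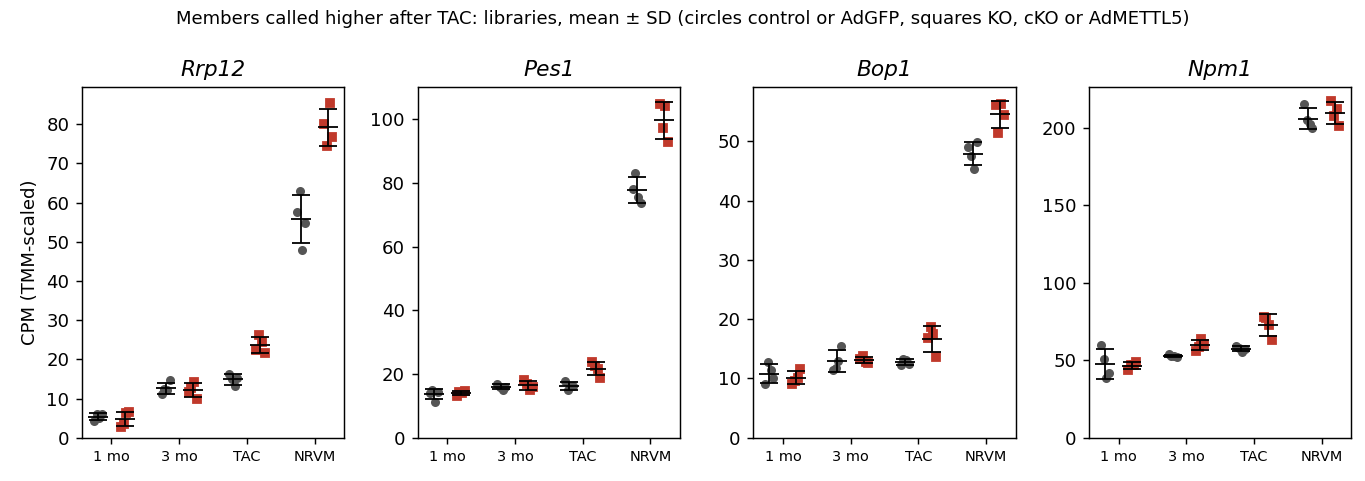
Levels (CPM) of the members called after TAC are plotted for each library of the 4 comparisons, with circles for control or AdGFP, squares for METTL5-KO, METTL5-cKO or AdMETTL5, and the mean and SD as bars. The METTL5-cKO squares lie above every control after TAC for Rrp12, Pes1, Bop1 and Npm1, and the NRVM groups overlap for Npm1.

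Among transcription factors of the rRNA genes no member was called after TAC, and 3 of 6 lay above 0 (median -0.01). Rrn3 was at 29.2, 29.5, 29.3 and 28.96 CPM in controls and 30.2, 33.1, 34.03 and 31.1 CPM in METTL5-cKO (0.14, SE 0.0663, adjusted p = 0.198). The Rrn3 groups were apart although the difference was small. Ubtf, the factor that bends rRNA gene chromatin for RNA polymerase I, was at 42.3, 49.9, 49.7 and 43.6 CPM against 41.96, 40.4, 43.9 and 46.3 CPM (-0.10, adjusted p = 0.424), with overlapping groups.

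No modification gene was called after TAC, and 8 of 14 lay above 0 (median 0.07). The members with the smallest p in this role lay below 0. Emg1 was at 23.5, 27.04, 25.6 and 24.8 CPM in controls and 19.4, 18.6, 17.6 and 23.96 CPM in METTL5-cKO (-0.34, SE 0.104, adjusted p = 0.0585). METTL5-cKO library 4 of Emg1 lay within the controls and the other 3 below them. Dkc1, the pseudouridine synthase of the H/ACA particles, was at 8.88, 8.51, 9.42 and 8.15 CPM against 7.15, 7.88, 7.60 and 7.24 CPM (-0.23, SE 0.0824, adjusted p = 0.0977), with groups apart. The other H/ACA core proteins had 0.28 (Gar1, adjusted p = 0.111), 0.32 (Nhp2, adjusted p = 0.0999) and -0.07 (Nop10, adjusted p = 0.538). Bud23 (-0.07), Dimt1 (-0.02) and Nat10 (0.11, adjusted p = 0.441) were not called, nor were Mettl5 (-0.04, adjusted p = 0.874) and Trmt112 (-0.10, adjusted p = 0.569). Exons of Emg1 overlap those of Lpcat3 on the opposite strand by 334 bases.

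In small subunit processing 1 of 14 members, Rrp12, was called, and 11 of 14 lay above 0 (median 0.20). Wdr75, another t-UTP protein, was at 6.45, 7.59, 5.98 and 6.40 CPM in controls and 8.55, 8.61, 8.04 and 7.74 CPM in METTL5-cKO (0.32, SE 0.0964, adjusted p = 0.0584), with groups apart. Tsr1, a GTPase-like factor of late small subunit maturation, was at 7.93, 5.54, 6.71 and 5.68 CPM against 12.01, 10.3, 11.8 and 6.29 CPM (0.65, SE 0.204, adjusted p = 0.065). METTL5-cKO library 4 of Tsr1 lay inside the control range, and exons of Tsr1 overlap those of Srr on the opposite strand by 1240 bases. Ltv1, an export adaptor of the small subunit, had 0.33 (adjusted p = 0.0626), and Heatr1 had 0.16 (adjusted p = 0.236).

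Large subunit processing had 2 of 10 members called, Pes1 and Bop1, and 8 of 10 above 0 (median 0.09). Wdr12, the remaining PeBoW protein, had 0.22 with groups apart (adjusted p = 0.0778). Gnl3 (nucleostemin) had 0.25, also with groups apart (adjusted p = 0.0629). In the multifunctional role Npm1 was called and 3 of 4 lay above 0 (median 0.26). Ncl, the major nucleolar RNA-binding protein, was at 110.8, 110.2, 94.1 and 102.8 CPM in controls and 144.9, 142.3, 134.3 and 107.9 CPM in METTL5-cKO (0.34, SE 0.105, adjusted p = 0.0599). Library 4 again set the overlap for Ncl.

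Summed over the 48 members, levels were 874.5–893.8 CPM in TAC controls and 942.8–990.9 CPM in METTL5-cKO. Sums were apart upward for small subunit genes (160.4–168.9 against 187.4–205.6 CPM), large subunit genes (182.5–188.4 against 195.2–200.9 CPM) and the multifunctional genes (199.3–221.4 against 224.2–281.8 CPM), and overlapped for transcription and modification. Cell type markers moved in the same hearts. Summed fibroblast markers were 497.4–625.1 CPM in controls and 767.4–2414 CPM in METTL5-cKO, with 6 of 7 called higher and library 4 at the low end (767.4 CPM), and 2 of 6 macrophage markers were called higher (157.2–217.1 against 218.2–282.5 CPM). Summed cardiomyocyte markers were 47383–52283 against 33037–43714 CPM, with 3 of 8 called lower (Tnni3, Myl2, Mb), and 4 of 6 endothelial markers were called lower (640.7–766.8 against 433.9–576.8 CPM). Of the 6 markers of dividing cells 0 were called (9.36–20.9 against 10.7–29.9 CPM), and of the 4 smooth muscle markers 0. The part of these markers in the member values was not tested, and in whole hearts fewer cells of a type and less RNA per cell cannot be told apart.

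**Figure D3:**
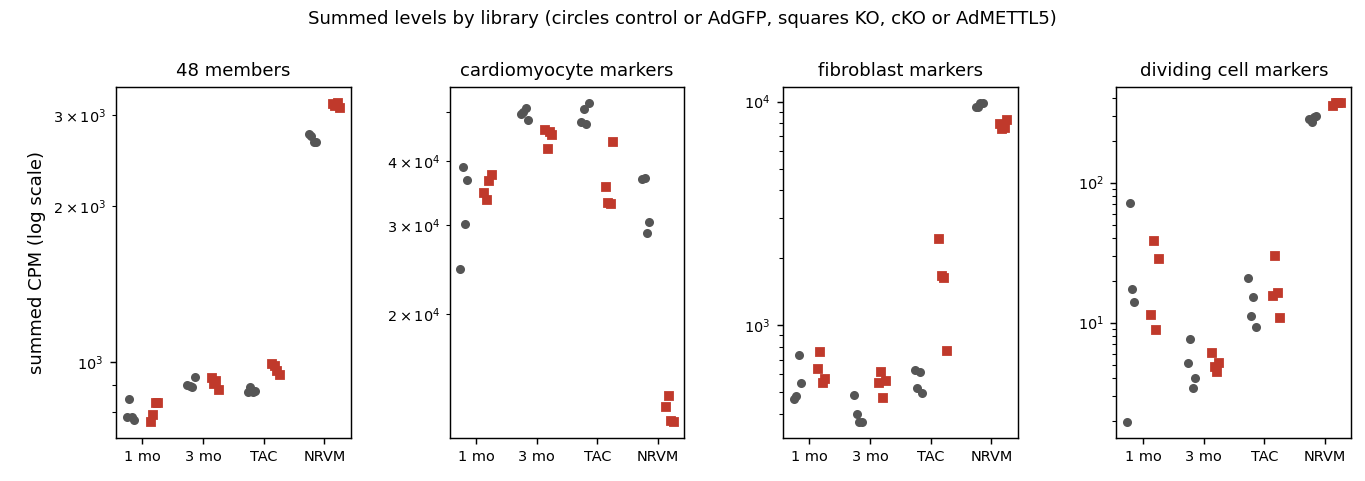
Summed CPM (log axis) of the 48 members, of cardiomyocyte markers, of fibroblast markers and of markers of dividing cells are shown for each library, with circles for control or AdGFP and squares for METTL5-KO, METTL5-cKO or AdMETTL5. After TAC the member sum (874.5–893.8 against 942.8–990.9 CPM) and the fibroblast sum are higher in METTL5-cKO, and in NRVMs the member sum is higher while the cardiomyocyte sum is lower with AdMETTL5.

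Beyond the members, a list of 112 further ribosome biogenesis genes was examined. After TAC 10 of the 111 tested were higher in METTL5-cKO (9.01%, near the 6.57% of all genes) and 1 was lower (0.901%, against 6.10%), with a median of 0.08 (0.00 over all genes). Myc, the transcription factor that activates many genes of the pathway, was at 3.42, 3.696, 3.12 and 2.04 CPM in controls and 10.04, 8.89, 5.09 and 7.59 CPM in METTL5-cKO (1.36, SE 0.237, adjusted p = 0.0125). Ddx21 (0.45, adjusted p = 0.015) and Dhx37 (0.60, adjusted p = 0.0161), RNA helicases of the nucleolus, rose too. Rbm28, a large subunit factor, fell by 0.44 on the log2 scale (adjusted p = 0.0287). Ddx21 was lost without METTL5-cKO library 2 (adjusted p up to 0.052), Dhx37 without that library or control library 4 (up to 0.0534), and Rbm28 without control library 2, 3 or 4 or METTL5-cKO library 2 or 3 and under scaling by library size alone or no filter on low counts (up to 0.133). At 1 month and at 3 months 0 of the 111 were called, with 3 and 4 at an unadjusted p under 0.05, against 747 and 1155 of all genes. Myc at 1 month was at 4.55, 2.52, 2.60 and 2.25 CPM in controls and 2.20, 1.84, 1.85 and 1.99 CPM in METTL5-KO (-0.60, SE 0.24, adjusted p = 0.973), with every METTL5-KO library below the controls. At 3 months its log2 fold change was 0.35 with overlapping groups (adjusted p = 0.881).

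Whether the genotype difference itself differed between TAC and unstressed hearts was tested as an interaction over the 16 libraries. No member was called, against 0.00586% of 17070 genes. Of the 48, 37 lay above 0 (median 0.19, against 0.00 over all genes) and 11 had an unadjusted p under 0.05. The share of all genes at that p was not counted for the interaction, so the 11 cannot be set against it. The largest was Rrp12 (0.73, SE 0.168, adjusted p = 0.123), at -0.05 at 3 months and 0.67 after TAC. By p, Ltv1 (0.45, adjusted p = 0.191), Gnl3 (0.34, adjusted p = 0.215) and Pes1 (0.38, adjusted p = 0.229) came next, while Tsr1 (0.44, SE 0.282) and Nhp2 (0.41, SE 0.218) had larger values than Gnl3 and Pes1 with larger errors. DESeq2's Wald test called 1 member, and so did edgeR without METTL5-cKO library 4 of TAC. Calls over all genes were not counted in those settings, so these member calls cannot be set against them.

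In NRVMs under PE, 32 of the 48 ribosome biogenesis genes were called higher with AdMETTL5 than with AdGFP, and 5 were called lower. The 66.7% called higher compares with 27.1% of all 15041 genes, and the 10.4% called lower with 25.7%. Members lay above 0 in 40 cases and below in 8, with a median log2 fold change of 0.23 (0.00 over all genes) and a range of -0.42 to 0.54, so no member changed by more than 1 on the log2 scale. Groups were apart upward for 30 members (62.5%, against 25.2% of all genes) and downward for 5 (10.4%, against 23.1%). Scaling by library size alone shifted the median of all genes to 0.13. Of all genes 5872 were then called higher and 2343 lower, against 4082 and 3867 with TMM. Under it 38 members were called higher and 2 lower, with Dimt1, Ltv1 and Polr1c no longer called. Above the median of all genes lay 40 members, as many as with TMM.

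**Figure D4:**
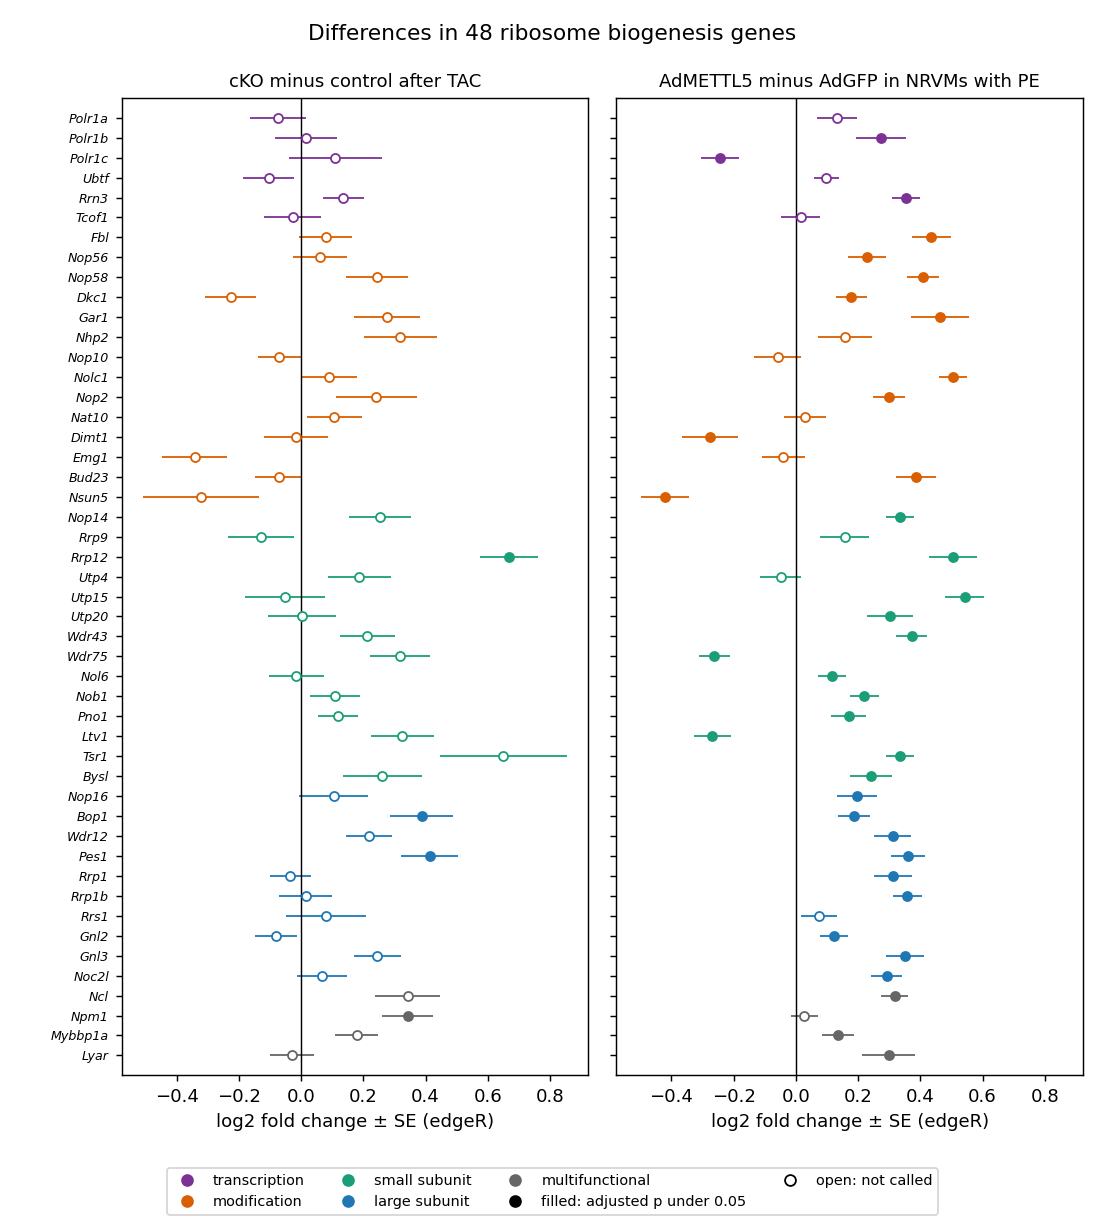
Log2 fold changes of the 48 members with their SE are plotted after TAC (left, METTL5-cKO over control) and in NRVMs (right, AdMETTL5 over AdGFP), ordered and coloured by role, with filled points for genes called by edgeR. After TAC 4 points are filled (Rrp12, Pes1, Bop1 and Npm1), and in NRVMs 37 are, 32 of them to the right of 0.

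Transcription members were split in NRVMs, with 2 of 6 higher and 1 lower (median 0.12). Rrn3 rose from 56.2, 59.6, 56.6 and 54.1 CPM with AdGFP to 71.2, 72.02, 73.4 and 73.1 CPM with AdMETTL5 (0.36, SE 0.045, adjusted p = 3.9e-05). Polr1b, the second largest polymerase I subunit, rose as well (0.27, adjusted p = 0.0127). Polr1c fell from 57.6, 59.1, 50.1 and 51.5 CPM to 43.99, 46.5, 46.1 and 47.7 CPM (-0.24, SE 0.0615, adjusted p = 0.0053). The groups of all 3 genes were apart. Polr1a, Ubtf and Tcof1 were not called, with log2 fold changes of 0.13, 0.10 and 0.02.

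Modification members were higher in 8 of 14 cases and lower in 2 (median 0.20). Nolc1, a chaperone of small nucleolar RNPs, rose from 117.3, 117.8, 111.2 and 107.4 CPM to 163.9, 156.8, 164.8 and 158.5 CPM (0.51, SE 0.0447, adjusted p = 2.3e-06). Nop58, a core protein of the box C/D particle, rose from 63.1, 58.6, 54.5 and 57.8 CPM to 79.8, 77.4, 77.9 and 75.5 CPM (0.41, SE 0.0512, adjusted p = 3.6e-05). No AdMETTL5 library of either gene reached down to the AdGFP range. The other core proteins of the C/D particle rose with it, Fbl, its methyltransferase, by 0.44 (adjusted p = 1.1e-04) and Nop56 by 0.23 (adjusted p = 0.0079). Of the H/ACA core, Dkc1 (0.18, adjusted p = 0.00942) and Gar1 (0.46, adjusted p = 0.00123) rose, while Nhp2 (0.16, adjusted p = 0.144) and Nop10 (-0.06, adjusted p = 0.544) were not called. Nop2 rose by 0.30 (adjusted p = 4.1e-04).

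The stand-alone enzymes did not share a direction in NRVMs. Bud23 was at 18.4, 18.8, 17.6 and 18.02 CPM with AdGFP and rose to 26.4, 22.8, 22.8 and 23.3 CPM (0.39, SE 0.0647, adjusted p = 3.3e-04). Dimt1 was at 9.07, 8.18, 8.87 and 7.97 CPM and fell to 7.62, 6.85, 6.37 and 7.31 CPM (-0.28, SE 0.0905, adjusted p = 0.0221). Both genes had groups apart. Nsun5, a cytosine methyltransferase of 28S rRNA, fell from 13.5, 14.5, 15.5 and 14.2 CPM to 11.7, 9.93, 10.8 and 10.6 CPM (-0.42, SE 0.0774, adjusted p = 6.6e-04). Emg1 (-0.04, adjusted p = 0.663) and Nat10 (0.03, adjusted p = 0.742) were not called. The rat Mettl5 count was 17.1, 16.9, 18.03 and 16.2 CPM with AdGFP and 20.5, 23.02, 22.2 and 19.1 CPM with AdMETTL5 (0.32, adjusted p = 0.00295); the vector carries the human sequence, so this count does not measure its dose. Trmt112 was not called (-0.10, adjusted p = 0.173).

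Small subunit members were higher in 10 of 14 cases and lower in 2 (median 0.23). Utp15 rose from 23.2, 24.9, 23.6 and 22.4 CPM to 31.98, 32.96, 37.4 and 34.8 CPM (0.54, SE 0.063, adjusted p = 2.0e-05), the largest fold change of a member in NRVMs. Tsr1 rose from 94.7, 93.6, 91.8 and 86.3 CPM to 116.7, 118.1, 113.9 and 113.4 CPM (0.33, SE 0.0438, adjusted p = 5.1e-05). Both had groups apart. Rrp12 rose from 57.5, 62.9, 47.9 and 54.9 CPM to 80.1, 74.4, 85.5 and 76.8 CPM (0.51, SE 0.0761, adjusted p = 1.5e-04). Nop14, Utp20, Wdr43, Nol6, Nob1, Pno1 and Bysl also rose, by 0.12 (Nol6) to 0.37 (Wdr43). Wdr75 fell from 42.6, 43.1, 40.8 and 40.4 CPM to 36.6, 34.1, 33.7 and 34.7 CPM (-0.26, SE 0.0499, adjusted p = 8.5e-04). Ltv1 fell by 0.27 (adjusted p = 0.00225), and Rrp9 (0.16) and Utp4 (-0.05) were not called. Utp15 and Wdr75, which belong to the same t-UTP complex, thus moved in opposite directions.

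Large subunit members rose in 9 of 10 cases and none fell (median 0.30). Rrp1b rose from 42.4, 43.99, 42.2 and 42.96 CPM to 53.8, 55.4, 53.4 and 57.3 CPM (0.36, SE 0.0457, adjusted p = 4.2e-05). Pes1 rose from 77.99, 83.2, 75.7 and 73.7 CPM to 104.7, 97.2, 104.2 and 92.7 CPM (0.36, SE 0.0552, adjusted p = 1.7e-04). In both genes the groups were apart. Its PeBoW partners Bop1 (0.19, adjusted p = 0.00829) and Wdr12 (0.31, adjusted p = 8.4e-04) rose, so that all 3 PeBoW genes were higher. Gnl3 (0.35), Rrp1 (0.31), Noc2l (0.29), Nop16 (0.20) and Gnl2 (0.12) rose, and Rrs1 (0.07, adjusted p = 0.313) was not called.

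Multifunctional members rose in 3 of 4 cases (median 0.22). Ncl rose from 286.2, 274, 269.5 and 288.7 CPM to 353, 347.3, 358.3 and 335.1 CPM (0.32, SE 0.0434, adjusted p = 7.2e-05). Lyar rose from 21.4, 20.1, 21.6 and 19.7 CPM to 27.2, 28.4, 25.2 and 21.1 CPM (0.30, SE 0.0865, adjusted p = 0.0119). The Ncl groups were apart and those of Lyar overlapped through AdMETTL5 library 4. Mybbp1a rose by 0.14 (adjusted p = 0.0388), and Npm1 was not called (0.03, adjusted p = 0.63). 

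Leaving out each library in turn gave 31 to 36 called members in NRVMs, where 7089 to 7725 of all genes were called. The member calls lost were those of 6 genes. Dimt1 was lost without AdGFP library 1 or 3 or AdMETTL5 library 2 or 3 (adjusted p up to 0.23 over all settings), and Nop16 without AdGFP library 2, 3 or 4 or AdMETTL5 library 1, 2 or 3 (up to 0.0766). Pno1 was lost without AdGFP library 2, 3 or 4 or AdMETTL5 library 1 or 3 (up to 0.0796), and Gnl2 without AdGFP library 3 or 4 or AdMETTL5 library 1, 2 or 3 (up to 0.0977). Mybbp1a was lost without any single AdGFP library or AdMETTL5 library 3 or 4 and with no filter on low counts (up to 0.108), and Nol6 without AdGFP library 1, 2 or 3 or AdMETTL5 library 1, 2 or 3 and with DESeq2's size factors or its Wald test (up to 0.115). The other 31 calls held without each library in turn.

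Of the further pathway genes 109 were tested in NRVMs, and 54 rose (49.5%, against 27.1% of all genes) while 12 fell (11%, against 25.7%), with a median of 0.16 (0.00 over all genes). Myc rose from 37.4, 35.4, 38.3 and 38.1 CPM to 65.9, 63.2, 63.7 and 67.3 CPM (0.80, SE 0.0478, adjusted p = 1.0e-07). Nop9, a nucleolar RNA-binding protein, rose by 0.72 (adjusted p = 1.9e-06) and Senp3, a nucleolar SUMO protease, by 0.47 (adjusted p = 5.7e-06). Wdr18 (-0.40, adjusted p = 9.3e-05), Exosc10 (-0.25, adjusted p = 8.0e-04), a nuclease of the nuclear exosome, and Sbds (-0.43, adjusted p = 0.00104), which helps release eIF6 from the large subunit, fell. Exosc10 was lost under scaling by library size alone (adjusted p = 0.0744). Within the list the 14 exosome genes had 2 higher (14.3%) and 4 lower (28.6%), the latter share near that of all genes.

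Summed member levels in NRVMs were 2655–2762 CPM with AdGFP and 3096–3171 CPM with AdMETTL5. Cardiomyocyte markers fell in 8 of 8 cases (summed 28937–37111 against 12251–13750 CPM), and 5 of 6 fibroblast markers fell (9418–9906 against 7549–8316 CPM). Of the 6 markers of dividing cells 4 were higher (Mki67, Top2a, Birc5, Aurkb) and 1 lower (Cdk1), with sums of 271.6–297.2 against 353.1–373.5 CPM. Kdr was the endothelial marker called, higher, 2 of 5 macrophage markers were lower and 2 of 4 smooth muscle markers higher. The part of these markers, and of the lower depth with AdMETTL5, in the member values was not tested.

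Mouse promoter sequence from RefSeq (GRCm38.p6, 250 bases before to 50 bases after the start) was available for 39 of the 48 members. It was searched for motifs of MYC and of ETS factors, and whether either bears on the member values was not tested. There was no entry for Tcof1, Fbl, Nsun5, Rrp12, Nol6, Bop1, Rrs1, Gnl2 and Npm1. The letters CACGTG, the canonical E-box that MYC is known to bind and the same on both strands, occurred in 10 of 39 (25.6%), against 7.24% of 27025 promoters and 10.1% of 10692 promoters of genes tested after TAC. From the start on, within 50 bases, they occurred in 8 (20.5%, against 1.13% and 1.57%), and before the start in 2 (5.13%, against 6.05% and 8.33%). Each site is printed below in a window of 30 bases, 5′ to 3′ on the strand of the gene, with the E-box in capitals.
Rrn3 (chr16:13780472-13780501, plus strand): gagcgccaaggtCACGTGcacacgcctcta
Rrn3 (chr16:13780639-13780668, plus strand): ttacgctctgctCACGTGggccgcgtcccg
Nop2 (chr6:125131811-125131840, plus strand): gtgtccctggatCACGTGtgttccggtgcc
Utp4 (chr8:106893643-106893672, plus strand): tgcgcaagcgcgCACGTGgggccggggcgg
Utp20 (chr10:88826765-88826794, minus strand): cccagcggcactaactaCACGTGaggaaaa
Wdr43 (chr17:71616220-71616249, plus strand): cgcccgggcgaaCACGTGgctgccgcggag
Pno1 (chr11:17211540-17211569, minus strand): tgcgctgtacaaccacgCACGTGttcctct
Ltv1 (chr10:13193092-13193121, minus strand): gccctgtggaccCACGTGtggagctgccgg
Tsr1 (chr11:74898092-74898121, plus strand): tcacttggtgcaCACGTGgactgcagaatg
Pes1 (chr11:3963965-3963994, plus strand): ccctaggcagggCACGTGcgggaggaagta
Mybbp1a (chr11:72441347-72441376, plus strand): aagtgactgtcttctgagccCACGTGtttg
These sites are in mouse sequence, whereas the NRVMs are rat cells, and rat promoters were not examined. Of these 10 genes 8 rose in NRVMs (Rrn3, Nop2, Utp20, Wdr43, Pno1, Tsr1, Pes1, Mybbp1a), Ltv1 fell and Utp4 was not called. Of the 29 members with an entry and no such letters 19 rose (65.5%) and 3 fell. Pes1 was the one gene of the 10 called after TAC, where Rrp12, Bop1 and Npm1, also called, had no promoter entry. The E-box of Pes1 begins at base 3 counted from the start, which is base 1.

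The letters CCGGAA, the core bound by ETS factors, were searched on both strands and occurred in 15 of 39 windows (38.5%), against 15.2% of all promoters and 27.3% of those of genes tested after TAC. In the 160 bases before the start they occurred in Nop58, Gar1, Nolc1, Nop2, Utp15, Tsr1 and Bysl, which rose in NRVMs. They also occurred there in Polr1c and Ltv1, which fell, and in Nhp2, Emg1 and Utp4, which were not called. Of all 48 members 66.7% rose in NRVMs. Whether members with and without the core differed was not tested. The stretch is shown for 3 modification genes that rose in NRVMs and whose upstream 160 bases hold no annotated exon. The core is in capitals, written as TTCCGG where it lies on the other strand. Nop2 carries the E-box in the same stretch, here in lower case.
Nolc1 (chr19:46075687-46075846, plus strand): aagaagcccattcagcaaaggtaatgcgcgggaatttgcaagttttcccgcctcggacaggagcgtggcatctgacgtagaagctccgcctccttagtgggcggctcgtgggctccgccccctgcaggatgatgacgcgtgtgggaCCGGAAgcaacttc
Nop2 (chr6:125131723-125131882, plus strand): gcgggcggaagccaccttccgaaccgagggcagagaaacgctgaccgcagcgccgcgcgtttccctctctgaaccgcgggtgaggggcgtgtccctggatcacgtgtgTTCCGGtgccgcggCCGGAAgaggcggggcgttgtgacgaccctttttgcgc
Gar1 (chr3:129831397-129831556, minus strand): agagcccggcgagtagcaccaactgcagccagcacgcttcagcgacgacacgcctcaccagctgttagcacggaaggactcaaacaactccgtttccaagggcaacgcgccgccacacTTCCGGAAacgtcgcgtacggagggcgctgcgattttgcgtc
Nolc1, Nop2 and Gar1 had log2 fold changes of 0.51, 0.30 and 0.46 in NRVMs and of 0.09, 0.24 and 0.28 after TAC, where none of them was called. A match of letters describes the sequence, and binding was not measured in these data.

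The TAC and NRVM comparisons share no samples and are set side by side here. Members had the same sign in 33 of 48 cases (68.8%), 29 above 0 in both and 4 below 0 in both, whereas among all 11050 genes with a shared symbol the signs matched in 49.6%. Across the 48 genes Pearson's r was 0.289 and Spearman's rho 0.264, and across all shared genes r was -0.05. Since 33 members lay above 0 after TAC and 40 in NRVMs, signs paired without regard to the gene would match in 62.5% of cases, so most of the match follows from these counts. Genes are not independent replicates, and the points share their libraries. Of the 4 members higher after TAC 3 rose in NRVMs (Rrp12, Pes1 and Bop1, 75% of the 4 and 9.38% of the 32 that rose in NRVMs). The 75% lies near the 66.7% of all 48 members that rose there. Npm1, with 0.34 after TAC, had 0.03 in NRVMs. Wdr75 and Ltv1 had 0.32 and 0.33 after TAC, where they were not called, and fell in NRVMs. Emg1 and Dkc1, the modification members with the smallest p after TAC, had -0.34 and -0.23 there, and -0.04 and 0.18 in NRVMs. The METTL5-cKO hearts were made to lack METTL5 in cardiomyocytes and the NRVMs to carry more of it, so the same sign stands for opposite changes of the enzyme.

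**Figure D5:**
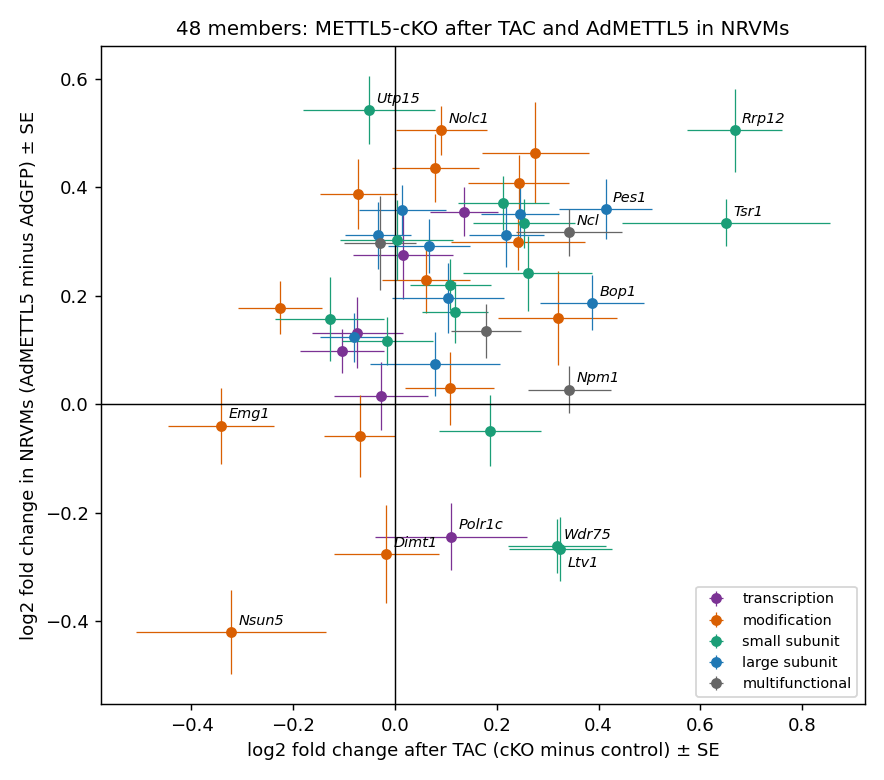
Each point is a member, placed by its log2 fold change after TAC (METTL5-cKO over control, horizontal) and in NRVMs (AdMETTL5 over AdGFP, vertical), coloured by role. Of the 48 points 29 lie above 0 on both axes, Rrp12 lies farthest to the upper right, and Wdr75 and Ltv1 lie at the lower right.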

How the data were processed

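RNA-seq libraries of mouse hearts and NRVMs, 4 per group, were read from 4 gene tables. The deposited values are estimated counts per gene that the authors made; the submitters' processing notes name HISAT2 2.0.4, StringTie 2.1.4 and DESeq2 1.4.5 and the builds GRCm38 and Rnor_6.0. All values were whole numbers, so rounding changed nothing, although the analysis plan had assumed plain counts. Annotation release and strand setting are not given in the sources used here. The columns of the 1-month table carry replicate numbers; in the others they give the group, and libraries are numbered by the number in the column name.

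The members and lists were chosen with earlier results of these data known. In R 4.3.3 each comparison was fitted with edgeR 4.0.16 (limma 3.58.1) on its own 8 libraries: filterByExpr with a minimum count of 10 and a minimum total of 15, TMM scaling, and a quasi-likelihood test with Benjamini-Hochberg adjustment over all tested genes (adjusted p under 0.05). The interaction was fitted over both tables of 3-month-old mice. Groups are apart where the lowest library of one lies above the highest of the other. The smallest two-sided exact permutation p for 4 against 4 is 0.0286. Alternatives were DESeq2 1.42.0, other scalings, filters and thresholds, and leaving out each library. The fits were tested on simulated data with planted changes larger than any member showed. Recovery of differences of the size seen here was therefore not tested. The closest pair of replicate libraries differed by 2.2 times the sampling noise (chi-square per degree of freedom), so none was counted as a duplicate. Values of all libraries are given for the members of each role with the smallest p (2 after TAC and in NRVMs, 1 at 1 and at 3 months) and for called genes and 18S rRNA enzymes the results turn on; other members are given by fold change. Positions come from a GENCODE annotation of GRCm38; promoters are RefSeq's, GRCm38.p6.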

Additional observations from a re-analysis of the deposited data

Results flagged for a closer look

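In 270 groups of 4 libraries, 11 (4.07%) held a library farther from the other 3 than the critical value of Dixon's test allows, and chance alone gives about 1 in 20. In METTL5-cKO hearts at 3 months, Polr1c was at 8.40 CPM in a library whose companions were at 7.24–7.33 CPM, and Utp15 was at 4.31 CPM beside 5.29–5.47 CPM. Controls at 3 months held Npm1 at 54.1 CPM beside 52.4–52.6 CPM and Trmt112 at 8.58 CPM beside 10.4–10.7 CPM. After TAC, a control library had Mettl5 at 5.62 CPM beside 7.10–7.14 CPM, and a METTL5-cKO library had Trmt112 at 9.46 CPM beside 11.6–11.8 CPM. In NRVMs, Bud23 was at 26.4 CPM in an AdMETTL5 library beside 22.8–23.3 CPM, and Mybbp1a was at 129.6 CPM in an AdGFP library beside 135.9–136.2 CPM. The summed level of the 48 members was 848.1 CPM in a 1-month control beside 771.7–782.4 CPM. Summed small subunit genes were at 160.4 CPM in a TAC control beside 168.1–168.9 CPM, and at 794.3 CPM in an AdMETTL5 library beside 779.1–781.2 CPM.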

How the results depend on the processing

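No fold change of a named gene turned its direction past the threshold under any alternative run. With the unadjusted p, 1 member was higher at 1 month, 2 were higher and 2 lower at 3 months, 16 were higher and 2 lower after TAC, and 11 passed in the interaction. Over all genes 747 passed that p at 1 month, 1155 at 3 months and 5062 after TAC. After TAC, scaling by library size alone called 17 higher, DESeq2's Wald test 7 higher and 1 lower, and leaving out each library in turn gave 1 to 10 higher and 0 to 1 lower. Over all genes, library size scaling called 2060 higher, and DESeq2 1460 higher and 1259 lower. Leaving out a library gave 479 to 3899 calls over all genes. In NRVMs, scaling by library size alone called 2 lower, against 2343 of all genes. With an added minimum of 1 on the log2 scale, 0 were higher after TAC, and 0 higher and 0 lower in NRVMs. Over all genes 474 passed that minimum after TAC and 880 in NRVMs, in either direction. For the interaction DESeq2 called 1, and leaving out each library gave 0 to 1, with the calls over all genes not counted there. With the replicate number as a block, 0 members were higher and 0 lower at 1 month; the deviations of same-numbered libraries correlated at 0.239, 0.12, -0.107 and 0.0782, so the numbers share no more than a label, and no paired analysis was possible for the other tables because their columns carry no shared numbers. At 1 month the median SE of 0.132 was large beside the NRVM median of 0.225, so differences of that size were not detectable for most members at this depth and spread.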
